A study of Mus musculus with 10 samples.

Results

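Adventitial fibroblasts are the fibroblasts of the outer sheath of blood vessels and of loose connective tissue. They differ from the matrix-contracting myofibroblasts of wounds and tumors, and single-cell studies of mouse tissues place cells with Pi16 and Dpt among the least specialized fibroblasts. The genes described here are 10 that such cells are known for: Pi16, Dpt, Clec3b, Efemp1, Tnxb, Mfap5, Cd34, Htra3, Pdgfra and Gsn. They were taken by symbol from a table of 27919 genes, and all 10 were present. All 10 had a mean of at least 1 TPM (transcripts per 1000000 of a library) over the tumors and so were among the 14556 genes fitted. The genes were chosen by their levels in these same libraries, on the difference between Ly86 and Vector tumors, which was already known. That difference is therefore given as a description, with no test, for each of the 10 genes. All of them are also made by other fibroblasts or other cells, so in whole tumors the name says what the genes are known for and not which cells the RNA came from.

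The libraries came from tumors of B16F10, a mouse melanoma line, taken whole or in pieces and snap-frozen. Ly86 tumors overexpressed Ly86, which encodes the secreted protein MD-1, and Vector tumors carried the vector. All mice, Vector ones included, had been treated 4 times with anti-PD-1 and anti-CTLA4 antibodies together, so no untreated tumor was compared. The sources used here do not give the age or strain of the mice. There were 4 Ly86 tumors and 3 Vector tumors, and 2 libraries each, called pieces, were made from the first Ly86 tumor and from Vector tumors 1 and 2. Each group thus had 5 libraries, 10 in all, of polyadenylated RNA. Pieces of a tumor were averaged on the log2(TPM + 1) scale, since the tumor is the replicate. The labels number the tumors without tying each to a mouse, so tumors may share a mouse and may not be independent. The spread between tumors may then understate the variation between mice, and it may also be partly technical.

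Between 19304 and 21882 genes had a value above 0 in a library, and read depth is unknown because TPM does not keep it. Ly86 itself ran from 49.1 to 81.9 TPM in the Ly86 libraries and from 6.24 to 80.9 TPM in the Vector libraries, and its row does not tell introduced from host transcripts. The first piece of Vector tumor 2 stood apart from the other 4 Vector libraries. That piece held the highest Vector level of Ly86, and its summed TPM of 10 melanocyte lineage genes was 12063, against 22885 in the second piece of the same tumor. This library is called the first Vector 2 piece, and the median difference of the 10 genes and of most gene lists is also given with it left out. Melanocyte lineage genes, which mark the labelled cell type, summed to 16547 to 24449 TPM in Ly86 tumors and to 17474 to 20418 TPM in Vector tumors. In bulk tissue, fewer fibroblasts and less of an RNA per fibroblast cannot be told apart.

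The upstream sequence of 4 of the genes is shown because the 10 genes moved together across libraries, and these 4 span the pattern. Pi16 is the gene most often used to name the cell type, Efemp1 and Tnxb lay close to the shared profile, and Gsn lay farthest from it. Htra3, which is not printed, lay closest. RefSeq windows on build GRCm38.p6 matched 8 of the 10 genes, all but Clec3b and Mfap5, and gave 10 windows because Gsn has 3. The 250 bases before each annotated start are printed, all on the plus strand. Pi16 is at chr17:29318632-29318881, Efemp1 at chr11:28852955-28853204, Tnxb at chr17:34670285-34670534 and the first Gsn window at chr2:35256109-35256358. Capitals mark matches on either strand to the GC box GGGCGG, the CCAAT box CCAAT and the AP-1 site TGANTCA.
Pi16: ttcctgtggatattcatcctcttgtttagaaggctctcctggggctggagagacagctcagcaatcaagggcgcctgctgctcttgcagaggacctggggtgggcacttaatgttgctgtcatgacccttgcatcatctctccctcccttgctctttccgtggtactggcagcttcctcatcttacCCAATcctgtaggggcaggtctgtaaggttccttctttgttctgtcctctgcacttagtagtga
Efemp1: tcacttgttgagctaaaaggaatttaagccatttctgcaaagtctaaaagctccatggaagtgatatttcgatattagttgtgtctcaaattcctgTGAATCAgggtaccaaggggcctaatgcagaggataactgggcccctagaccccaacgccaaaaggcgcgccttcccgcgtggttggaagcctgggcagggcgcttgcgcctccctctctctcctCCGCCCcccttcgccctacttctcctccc
Tnxb: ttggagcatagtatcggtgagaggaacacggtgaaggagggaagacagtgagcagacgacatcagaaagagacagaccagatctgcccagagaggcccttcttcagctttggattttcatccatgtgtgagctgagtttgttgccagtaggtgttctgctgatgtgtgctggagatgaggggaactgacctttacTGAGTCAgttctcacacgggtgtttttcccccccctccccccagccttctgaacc
Gsn: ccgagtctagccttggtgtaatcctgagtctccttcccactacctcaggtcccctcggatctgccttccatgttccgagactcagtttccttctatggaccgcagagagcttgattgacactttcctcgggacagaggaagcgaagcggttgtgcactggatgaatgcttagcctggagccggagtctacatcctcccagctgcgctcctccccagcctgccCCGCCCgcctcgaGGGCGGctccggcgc

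The AP-1 pattern TGANTCA, where N is any base, matches on both strands at once. It was found as TGAATCA for Efemp1 and as TGAGTCA for Tnxb, both among the printed genes. These were 2 of 8 genes and 2 of their 10 windows, beside 6.75% of all 32851 windows of that length. The GC box was found for Efemp1 and Gsn, 2 of 8 genes and 4 of their 10 windows, beside 32.7% of all windows. The CCAAT box was found for Pi16, Htra3 and Gsn, 3 of 8 genes and 4 of their 10 windows, beside 33.8% of all windows. For Gsn it lay in windows 2 and 3, which are not printed. No window of the 8 genes held the TATA box TATAAA, the TEAD site GGAATG, the CArG box of SRF or the paired NFI site, which were in 12.4%, 12.6%, 0.0609% and 0.0365% of all windows. A match describes these letters and says nothing of binding. The 10 genes lie on 7 chromosomes, with Dpt and Cd34 on chromosome 1, Htra3 and Pdgfra on chromosome 5, and Pi16 and Tnxb on chromosome 17. In GENCODE M21, 5 of them (Pi16, Dpt, Tnxb, Cd34 and Pdgfra) overlap an annotated gene on the opposite strand. This overlap is of whole gene spans, and overlap of exons was not examined. The sources used here do not say whether counting used strand, so reads of such pairs may be mixed where exons overlap.

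All 10 genes had a higher mean in the Ly86 tumors than in the Vector tumors, by 0.76 log2 units for Gsn up to 3.14 for Clec3b. Their median difference was 1.80 on the log2(TPM + 1) scale, beside -0.037 over all 14556 tested genes, of which 43.8% had a higher mean in the Ly86 tumors. For 9 of the 10 genes the lowest Ly86 tumor exceeded the highest Vector tumor, Pdgfra being the exception. Over all tested genes 4.71% were higher in this way and 5.75% lower. These counts follow from how the genes were chosen. In limma, with Benjamini-Hochberg adjustment, none of the 14556 tested genes passed 0.05 (0.0% called), while 1565 genes had an unadjusted p under 0.05.

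That separation depended on how the pieces of Vector tumor 2 were combined. It also moved with the scaling, to 8 of 10 genes with median-of-ratios scaling and 7 of 10 with quantile normalization. With a pseudocount of 0.1 it held for 10 of 10. Under these settings, in that order, 5.39%, 4.24% and 5.26% of tested genes lay apart with Ly86 higher. With the first piece of each divided tumor, or with pieces averaged as TPM before the log, the Ly86 and Vector tumors overlapped for all 10 genes. The share of tested genes with groups apart and Ly86 higher was then 1.45% and 2.58%. With the second piece of each divided tumor, or with the first Vector 2 piece left out, the groups were apart for all 10 genes, where 8.28% and 8.35% of tested genes were. The median difference of the 10 genes was 1.09 with the first pieces, 1.37 with TPM averaged, 2.48 with the first Vector 2 piece left out and 2.52 with the second pieces. Leaving that piece out gave a difference of 2.30 for Mfap5, where 1.34 was found with all libraries, of 2.06 for Pdgfra, where 1.28 was found, and of 1.53 for Cd34, where 1.00 was found. Averaging as TPM gave 0.67 for Mfap5, 0.79 for Pdgfra and 1.46 for Dpt.

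**Figure D1:**
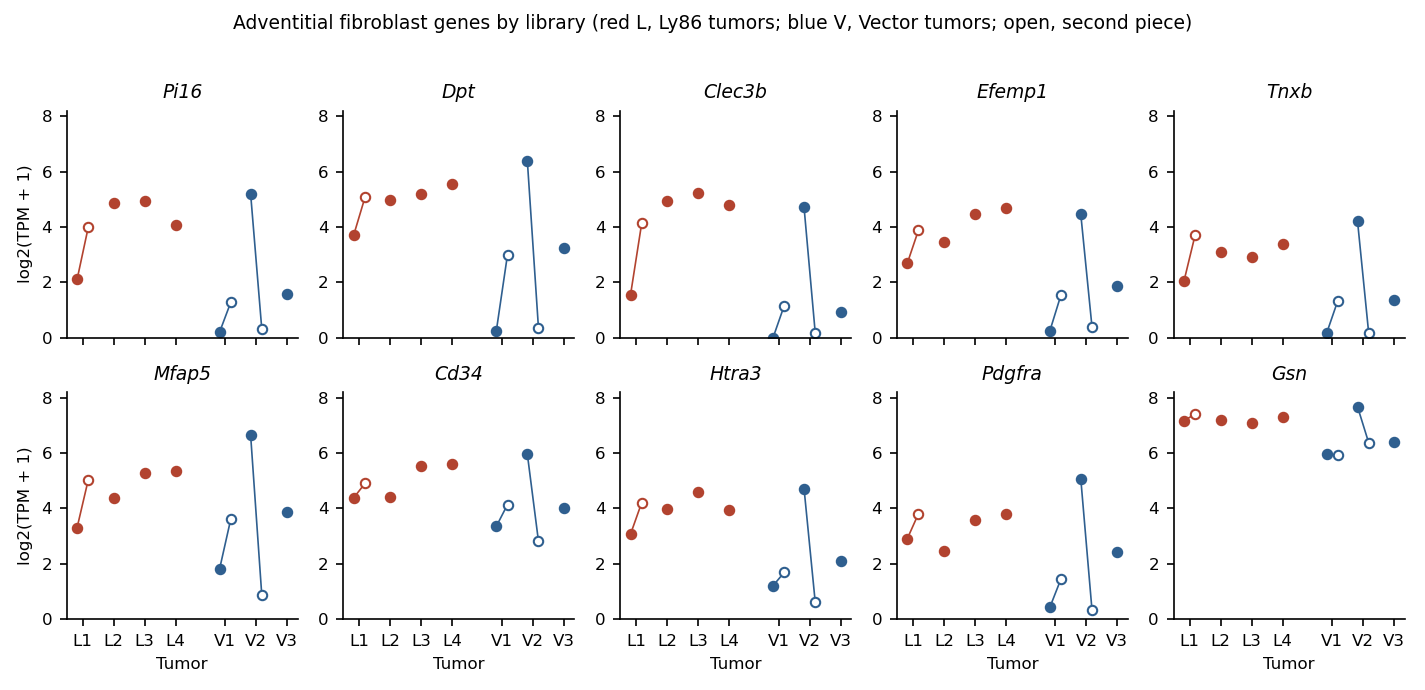
Level of each of the 10 genes, log2(TPM + 1) on the y axis, in each library, with Ly86 tumors 1 to 4 (L, red) left of Vector tumors 1 to 3 (V, blue) and the pieces of a tumor joined by a line (filled, first piece or undivided tumor; open, second piece). The first piece of Vector tumor 2 was the highest of 10 libraries for 8 genes, while its second piece and the first piece of Vector tumor 1 were the lowest pair for 9.

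Pi16, Cd34 and Pdgfra encode proteins of the cell surface. Pi16, a membrane-bound member of the CAP family of peptidase inhibitor-like proteins, stood at 3.30 and 14.8 TPM in the pieces of Ly86 tumor 1 and at 28.4, 29.6 and 15.9 TPM in Ly86 tumors 2, 3 and 4. Against these, it stood at 0.15 and 1.42 TPM in the pieces of Vector tumor 1, at 35.8 and 0.25 TPM in those of Vector tumor 2 and at 1.96 TPM in Vector tumor 3. The Ly86 libraries were above 4 of the 5 Vector libraries and below the first piece of Vector tumor 2. On the log2 scale Pi16 averaged 4.23 ± 0.88 in Ly86 tumors (SD, n = 4) and 1.69 ± 1.02 in Vector tumors (SD, n = 3), a difference of 2.54 (SE 0.58).

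Cd34, a sialomucin that fibroblasts share with endothelium and blood progenitors, held 19.9 and 28.9 TPM in the pieces of Ly86 tumor 1 and 20.5, 44.8 and 47.3 TPM in Ly86 tumors 2, 3 and 4. In the Vector group it held 9.21 and 16.6 TPM in the pieces of tumor 1, 61.3 and 6.0 TPM in those of tumor 2 and 15.0 TPM in tumor 3. The difference of 1.00 (SE 0.32) was the second smallest of the 10. Pdgfra, the receptor for platelet-derived growth factor that most fibroblasts carry, had 6.49 and 12.98 TPM in the pieces of Ly86 tumor 1 and 4.46, 10.9 and 12.8 TPM in the other Ly86 tumors. It had 0.34 and 1.73 TPM in the pieces of Vector tumor 1, 32.3 and 0.27 TPM in those of Vector tumor 2 and 4.33 TPM in Vector tumor 3. With pieces averaged as log2(TPM + 1), Ly86 tumor 2, at 2.449, was almost level with Vector tumor 3, at 2.414. The groups overlapped because Vector tumor 2, at 2.701, lay above Ly86 tumor 2. The Pdgfra difference was 1.28 on the log2 scale (SE 0.47).

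Dpt, Tnxb, Mfap5 and Efemp1 encode proteins laid down around collagen and elastic fibers. Dpt, or dermatopontin, which binds decorin and collagen, held 12.2 and 32.5 TPM in the pieces of Ly86 tumor 1 and 30.7, 35.8 and 45.9 TPM in Ly86 tumors 2, 3 and 4. It held 0.19 and 6.98 TPM in the pieces of Vector tumor 1, 82.8 and 0.26 TPM in those of Vector tumor 2 and 8.35 TPM in Vector tumor 3. Both the highest and nearly the lowest Dpt level of the study thus came from Vector tumor 2. Dpt averaged 5.03 ± 0.49 log2(TPM + 1) in Ly86 tumors (SD, n = 4) and 2.74 ± 0.97 in Vector tumors (SD, n = 3), 2.30 apart (SE 0.44).

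Efemp1, a secreted fibulin, had 5.43 and 13.7 TPM in the pieces of Ly86 tumor 1 and 10.01, 21.3 and 24.8 TPM in the other Ly86 tumors. In the Vector group it had 0.18 and 1.91 TPM in tumor 1, 20.9 and 0.32 TPM in tumor 2 and 2.68 TPM in tumor 3. Efemp1 and Clec3b were the genes for which a Ly86 library, not the first piece of Vector tumor 2, was the highest of all 10. Tnxb, or tenascin-X, a glycoprotein whose loss in humans causes a form of Ehlers-Danlos syndrome, had 3.14 and 12.1 TPM in the pieces of Ly86 tumor 1 and 7.48, 6.45 and 9.48 TPM in the other Ly86 tumors. It had 0.11 and 1.5 TPM in Vector tumor 1, 17.4 and 0.12 TPM in Vector tumor 2 and 1.57 TPM in Vector tumor 3. The differences were 2.25 (SE 0.46) for Efemp1 and 1.64 (SE 0.33) for Tnxb.

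Mfap5, a glycoprotein of fibrillin microfibrils, held 8.89 and 31.7 TPM in the pieces of Ly86 tumor 1 and 19.9, 37.3 and 39.4 TPM in the other Ly86 tumors. Against these stood 2.52 and 11.2 TPM in Vector tumor 1, 99.98 and 0.84 TPM in Vector tumor 2 and 13.6 TPM in Vector tumor 3. Mfap5 was the exception among the 10 genes in that 1 Ly86 library, the first piece of tumor 1, lay below Vector libraries other than the first piece of tumor 2. For the other 9 genes the lowest Ly86 library lay above the other 4 Vector libraries. The Mfap5 difference was 1.34 (SE 0.38).

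Clec3b and Htra3 encode secreted proteins that act on proteolysis. Clec3b, or tetranectin, a plasminogen-binding lectin, had 1.94 and 16.6 TPM in the pieces of Ly86 tumor 1 and 29.6, 36.5 and 26.7 TPM in the other Ly86 tumors. It was listed at 0 in the first piece of Vector tumor 1 and had 1.23 TPM in the second, 25.1 and 0.13 TPM in the pieces of Vector tumor 2 and 0.90 TPM in Vector tumor 3. Clec3b had the largest difference of the 10, 3.14 (SE 0.64). Htra3, a serine protease, had 7.41 and 17.5 TPM in the pieces of Ly86 tumor 1 and 14.8, 23.0 and 14.4 TPM in the other Ly86 tumors, against 1.31 and 2.22 TPM in Vector tumor 1, 25.1 and 0.53 TPM in Vector tumor 2 and 3.23 TPM in Vector tumor 3. Its difference was 1.97 (SE 0.32).

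Gsn, or gelsolin, which severs and caps actin filaments and is made by many cell types, was the most abundant of the 10 and the least variable. It held 143 and 169 TPM in the pieces of Ly86 tumor 1 and 144, 135 and 155 TPM in the other Ly86 tumors. In the Vector group it held 60.7 and 59.3 TPM in tumor 1, 203 and 81.8 TPM in tumor 2 and 83.7 TPM in tumor 3. Ly86 tumors agreed closely, at 7.21 ± 0.097 log2(TPM + 1) (SD, n = 4), and Vector tumors less so, at 6.45 ± 0.55 (SD, n = 3), with a difference of 0.76 (SE 0.23). Over the 7 tumors the SD of Gsn was 0.52 and larger than that of 83.3% of tested genes. The other 9 genes ranged from 0.71 for Cd34 to 1.93 for Clec3b, each above at least 89.8% of tested genes, and the median of the 10 was 1.07 beside 0.25 over all tested genes. This SD spans both groups and so includes the difference on which the genes were chosen. Their high rank in it therefore follows in part from that choice.

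Pieces of 1 tumor also differed in these genes. In Vector tumor 2 the first piece was higher than the second for all 10 genes, with a median difference of 4.31 log2 units, beside -0.0057 over all tested genes. The difference passed 2 log2 units, or 4-fold, for 9 of the 10, where 8.68% of tested genes did so and 0.22% differed as far the other way. Dpt differed by 6.06 and Mfap5 by 5.78, and 0.172% and 0.220% of tested genes had a larger difference. Cd34 differed by 3.15 and Gsn by 1.301, with 3.06% and 14.0% of genes above them. There was 1 library for each piece, so no test was possible.

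In the other divided tumors the second piece was the higher. In Ly86 tumor 1 the first piece was lower for all 10 genes, with a median of -1.27 beside 0.0096 over all tested genes. Clec3b, at -2.58, was the gene of the 10 past 2 log2 units, as were 0.948% of tested genes, with 0.804% past it in the other direction. In Vector tumor 1 the first piece was lower for 9 of 10 genes, with a median of -1.12 beside -0.13 over all tested genes, and Gsn, at 0.034, was the exception. Dpt, at -2.75, was the gene past 2 log2 units there, beside 1.26% of tested genes, with 0.35% past it in the other direction. Col1a1, the main chain of type I collagen, differed by -0.35 in Ly86 tumor 1, by -1.37 in Vector tumor 1 and by 5.06 in the second Vector tumor. In Ly86 tumor 1 the members other than Gsn thus differed more than Col1a1 did. In Vector tumor 2, relative to Col1a1, Dpt was 1.00 higher in the first piece than in the second and Mfap5 0.72 higher, while Cd34 stood at -1.91 and Gsn at -3.76.

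**Figure D2:**
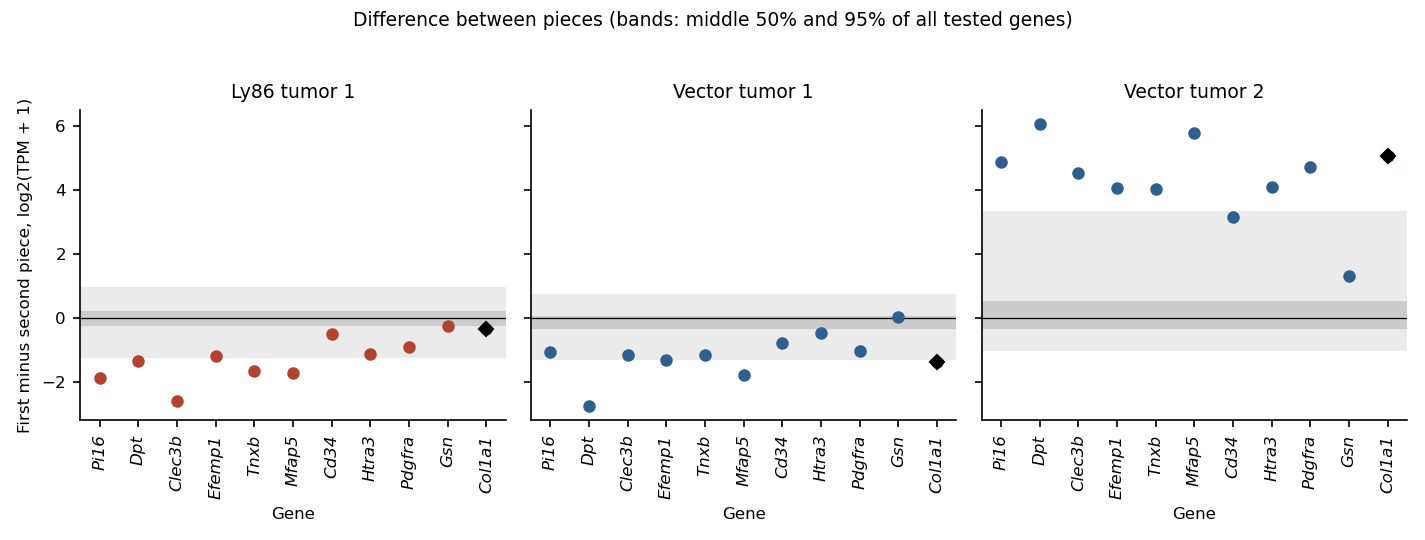
Difference between the first and the second piece of each divided tumor, in log2(TPM + 1) on the y axis, for each of the 10 genes (circles) and Col1a1 (black diamond), over bands that hold the middle 50% and 95% of all tested genes. In Vector tumor 2 the 10 genes lay between 1.301 and 6.06 above zero, and in Ly86 tumor 1 all lay below zero.

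Genes of surrounding tissue also differed between pieces, and their part in these results was not tested. In Vector tumor 2 all 7 tested adipocyte markers were higher in the first piece, with a sum over the 9 listed of 413 TPM against 3.24 TPM in the second. All 9 keratinocyte and skin markers were higher there, summing to 813 against 0.78 TPM, as were all 8 tested skeletal muscle markers, summing to 296 against 24.7 TPM. All 12 endothelial markers, at 471 against 113 TPM, all 8 mural markers, at 198 against 81.8 TPM, and all 12 macrophage markers, at 3533 against 216 TPM, were higher in the first piece as well. In Ly86 tumor 1 the pattern was mixed between lists. Keratinocyte markers summed to 2732 TPM in the first and 116 TPM in the second piece, adipocyte markers to 67.9 and 134 TPM, and muscle markers to 26.2 and 1008 TPM. Macrophage markers summed to 1139 and 2258 TPM, with 0 of 12 higher in the first piece. In Vector tumor 1, 0 of 12 macrophage, 0 of 7 adipocyte, 0 of 8 muscle and 0 of 12 endothelial markers were higher in the first piece. Of keratinocyte markers 3 of 9 were higher there, and of mural markers 1 of 8. Macrophage and adipocyte markers thus went the way of most of the 10 genes in all 3 divided tumors. No marker on any of the 16 other lists was at 0 in all 10 libraries, and of these 6 lists only Pax7, a marker of muscle stem cells, was below 1 TPM in every tumor.

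Between the groups of tumors most of these marker lists were not higher in the Ly86 tumors, and none of their genes passed limma. Summed keratinocyte markers ran from 1.02 to 1424 TPM in Ly86 tumors and from 16.4 to 407 TPM in Vector tumors, with 0 of 9 tested markers higher in mean in the Ly86 tumors, and Krt14 and Krt5, their defining basal keratins, were listed at 0 in at least 1 Ly86 tumor. Ly86 tumors 3 and 4 had keratinocyte sums of 1.02 and 1.89 TPM, and their summed levels of the 10 genes were 380 and 392 TPM. The first Vector 2 piece held 813 TPM of these markers and 604 TPM of the 10 genes. The first piece of Ly86 tumor 1 held 2732 and 211.5 TPM. A link between these sums was not tested. Adipocyte markers ran from 18.1 to 101 TPM in Ly86 tumors and from 19.2 to 208 TPM in Vector tumors, with 4 of 7 tested markers higher and a median difference of 0.0002. Muscle markers ran from 6.68 to 517 TPM in Ly86 tumors and from 160 to 177 TPM in Vector tumors, with 0 of 8 higher. Endothelial markers, which bear on Cd34, ran from 128 to 230 TPM in Ly86 tumors and from 136 to 292 TPM in Vector tumors. Of the endothelial genes 4 of 12 were higher, with a median difference of -0.064. Pecam1, an adhesion molecule of endothelium, ran from 18.1 to 44.9 TPM in Ly86 tumors and from 18.0 to 49.0 TPM in Vector tumors (0.18, SE 0.30), and the difference was -0.072 (SE 0.25) for Egfl7 and -0.057 (SE 0.30) for Cdh5. Mural markers summed to 66.5 to 138 TPM in Ly86 tumors and to 98.9 to 140 TPM in Vector tumors, with 2 of 8 higher. With the first Vector 2 piece left out, 11 of 12 endothelial, 7 of 7 adipocyte, 8 of 9 keratinocyte and 5 of 8 mural markers were higher in mean in the Ly86 tumors, with medians of 0.33, 0.67, 0.40 and 0.063. Muscle markers were then 2 of 8 higher, with a median of -0.38. The share of all tested genes higher in mean with that piece left out is not given here, so these counts lack a background. Adipocyte markers were 2 of 7 higher, with a median of -0.062, under quantile normalization. Macrophage markers, by contrast, were 12 of 12 higher in mean, with a median difference of 1.297 and sums of 1323 to 1718 TPM in Ly86 tumors against 274 to 1875 TPM in Vector tumors. Among them C1qb, a chain of complement C1q, ran from 336 to 479 TPM in Ly86 tumors and from 65.7 to 497 TPM in Vector tumors (1.35, SE 0.46, limma adjusted p = 0.437). The macrophage median was 2.04 with the first Vector 2 piece left out and 0.91 with pieces averaged as TPM, with 12 of 12 higher in both. With all libraries, the groups lay apart on the log2 scale, Ly86 higher, for 8 of these 12 genes, beside 4.71% of tested genes. Mesothelial markers apart from Gpm6a were below 1 TPM in every tumor. Of the tested hematopoietic progenitor markers 0 of 4 were higher, with a median of -0.52. Mast cell markers had 4 of 6 higher with a median of 0.90, which was 1.69 with the first Vector 2 piece left out and 0.41 with pieces averaged as TPM. Schwann cell markers had 3 of 6 higher with a median of -0.0053, which was 0.023 with median-of-ratios scaling, and melanocyte lineage genes 5 of 10 with a median of -0.011, which was 0.022 with that scaling and -0.15, with 2 of 10 higher, with the first Vector 2 piece left out.

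**Figure D3:**
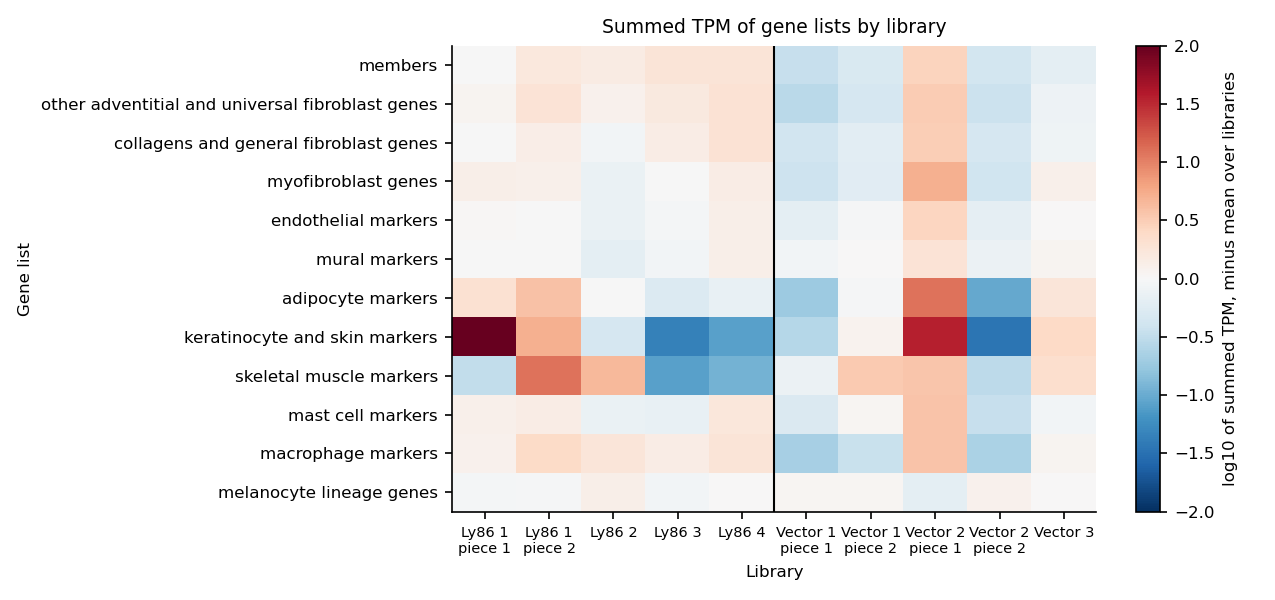
Summed TPM of 12 gene lists (rows) in each of the 10 libraries (columns, Ly86 left of the black line and Vector right), as log10 minus the mean of the row over libraries (red high, blue low). Every list drawn but the melanocyte one was high in the first piece of Vector tumor 2, while keratinocyte and muscle markers were low in Ly86 tumors 3 and 4.

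Relative to Col1a1, the 10 genes split. Col1a1 was itself higher in the Ly86 tumors, at 8.78 ± 0.62 log2(TPM + 1) (SD, n = 4) against 7.32 ± 0.98 in the Vector tumors (SD, n = 3), a difference of 1.45 (SE 0.48). With the Col1a1 level subtracted in each library, 6 of the 10 genes still had a higher mean in the Ly86 tumors: Clec3b by 1.68, Pi16 by 1.09, Dpt by 0.84, Efemp1 by 0.79, Htra3 by 0.52 and Tnxb by 0.18. Mfap5 stood at -0.12, Pdgfra at -0.18, Cd34 at -0.45 and Gsn at -0.70. The median was 0.35, beside -1.49 over all tested genes, most of which did not share the Col1a1 difference. The spread was wide, with Pi16 at -4.54 ± 1.17 in Ly86 tumors (SD, n = 4) and -5.63 ± 0.65 in Vector tumors (SD, n = 3). For 1 of the 10 genes, Dpt, at -3.74 ± 0.50 in Ly86 tumors (SD, n = 4) against -4.59 ± 0.099 in Vector tumors (SD, n = 3), the groups lay apart with Ly86 higher, as they did for 0.0412% of tested genes, while 52.4% of tested genes lay apart with Ly86 lower.

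**Figure D4:**
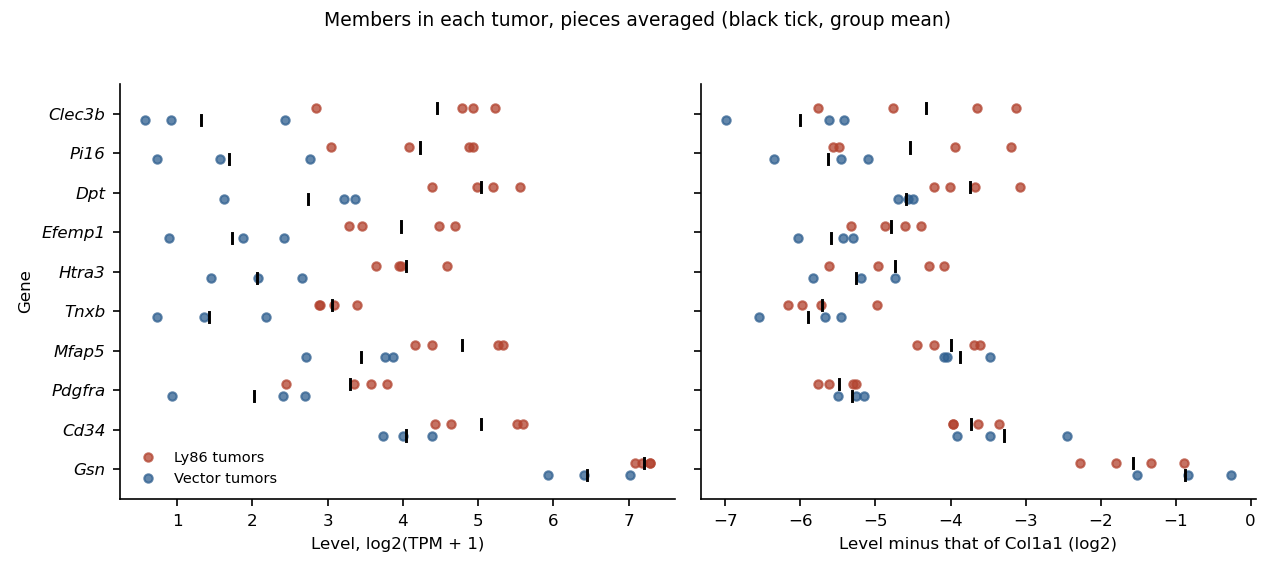
Level of the 10 genes in each tumor with pieces averaged, as log2(TPM + 1) on the left and after subtracting Col1a1 on the right (x axes), with Ly86 tumors in red above Vector tumors in blue and the group mean as a black tick. The groups lie apart on the left except for Pdgfra and overlap on the right for all genes but Dpt.

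These ratios moved with the pseudocount, because several Vector libraries held under 1 TPM of a gene. With a pseudocount of 0.1 the median relative to Col1a1 was 1.04, and 8 of 10 genes were higher, all but Cd34 and Gsn. It was -0.18 with Col3a1 as the denominator, with 4 of 10 higher (Pi16, Dpt, Clec3b and Efemp1), and 1.61 with Pdgfrb, with 10 of 10 higher. Leaving out Vector tumor 3 gave 0.041, Ly86 tumor 2 gave 0.12, the first Vector 2 piece 0.19, Ly86 tumor 4 0.57 and Vector tumor 1 0.59. Pi16, Dpt, Clec3b and Efemp1 had a higher mean in the Ly86 tumors under each of these settings and denominators, while Tnxb stood at -0.15 with Vector tumor 3 left out, at -0.062 with Ly86 tumor 2 left out and at -0.34 with Col3a1 as the denominator.

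Without any pseudocount, the level of a gene can be given as a percent of the Col1a1 level in the same tumor, with the TPM of pieces averaged. Clec3b ran from 2.36% to 11.1% in Ly86 tumors and from 0.373% to 1.83% in Vector tumors. Efemp1 ran from 2.44% to 4.56% in Ly86 tumors and from 1.11% to 1.54% in Vector tumors. For these 2 of the 10 genes the groups lay apart with Ly86 higher, as they did for 0.261% of tested genes on this scale. Pi16 ran from 2.11% to 10.6% in Ly86 tumors and from 0.813% to 2.62% in Vector tumors, so that 1 Vector tumor lay within the Ly86 range. Dpt, at 5.69% to 11.5% in Ly86 tumors and 3.46% to 6.03% in Vector tumors, overlapped on this scale. Pdgfra, at 1.67% to 2.48% in Ly86 tumors and 1.28% to 2.36% in Vector tumors, and Mfap5, at 5.16% to 7.98% and 5.65% to 8.53%, covered nearly the same range in both groups. Gsn ran from 20.5% to 54.0% in Ly86 tumors and from 20.6% to 74.4% in Vector tumors, and reached 209% of Col1a1 in the second piece of Vector tumor 2, where Col1a1 was at 39.2 TPM.

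Among themselves the 10 genes followed 1 profile over the 10 libraries to differing degrees. The distance used was the root mean square difference, in log2 units, between the profile of a gene and the mean profile of the other members, each profile centred on its own mean. A distance can thus reflect the size of the swings as well as their course. Htra3 at 0.284, Tnxb at 0.301 and Efemp1 at 0.320 were closest to the rest. Pdgfra at 0.501, Mfap5 at 0.544, Pi16 at 0.631, Cd34 at 0.671 and Dpt at 0.712 followed, with Clec3b at 0.896 and Gsn at 1.06 farthest away. Around its own mean Gsn ran from -0.93 to 0.83 and Clec3b from -2.76 to 2.47, where the mean profile ran from -2.30 to 1.96. Col1a1 stood at 0.481 from the mean profile, within the range of the members. Among tested genes outside the list and without Gm or Rik names, Ogn (0.233), Cd55 (0.272), Wfdc17 (0.282), Cbr2 (0.287), Lyve1 (0.331), Mmp2 (0.337), F13a1 (0.343) and Plac9 (0.352) had the smallest distance to the mean profile of all 10, where the median over all tested genes was 1.5. Ogn and Cd55 are on the list of other adventitial and related genes and Mmp2 on the general fibroblast list. Lyve1 and F13a1 are on the macrophage list, so the profile was not particular to fibroblast genes. This likeness is over 10 libraries, of which 6 are pieces of 3 tumors, and the difference between groups is part of it.

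**Figure D5:**
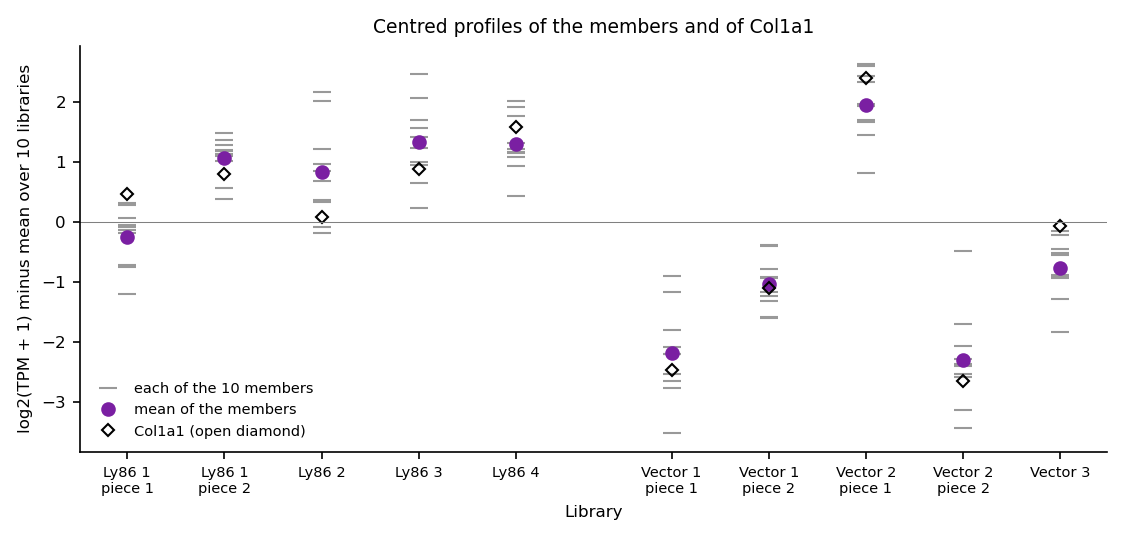
Profiles over the 10 libraries (x axis, Ly86 left of Vector) as log2(TPM + 1) minus the mean over libraries (y axis), with a grey dash for each of the 10 genes, a purple point for their mean and an open diamond for Col1a1. The mean ran from -2.30 in the second piece of Vector tumor 2 to 1.96 in its first piece, and Col1a1 lay above it in the first piece of Ly86 tumor 1, in Ly86 tumor 4, in the first Vector 2 piece and in Vector tumor 3.

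Other genes of adventitial and related fibroblasts were also higher in mean in the Ly86 tumors. Of these, 26 were tested, 25 of them higher and 1 lower, with a median difference of 1.00, and with median-of-ratios scaling 26 of 26 were higher. The median was 1.60 with the first Vector 2 piece left out and 0.78 with pieces averaged as TPM. None passed limma with Benjamini-Hochberg adjustment over all genes. On the log2 scale the groups of tumors lay apart with Ly86 higher for 15 of the 26, beside 4.71% of all tested genes. The TPM ranges of single genes given from here on average pieces as TPM, a scale on which the 10 members overlapped as well. Ly6a, which encodes the surface antigen Sca-1, ran from 344 to 482 TPM in Ly86 tumors and from 27.8 to 392 TPM in Vector tumors, with a difference of 1.94 (SE 0.61, limma adjusted p = 0.437). Dcn, or decorin, the collagen-binding proteoglycan that Dpt binds, ran from 70.9 to 158 TPM in Ly86 tumors and from 14.0 to 153 TPM in Vector tumors (2.39, SE 0.45, limma adjusted p = 0.409). Fbln1, another fibulin, ran from 99.9 to 113 TPM in Ly86 tumors and from 97.9 to 109 TPM in Vector tumors (0.031, SE 0.090, limma adjusted p = 0.938).

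Collagens and general fibroblast genes were 19 of 20 higher in mean, with a median difference of 0.85 and none past the test. That median was 1.401 with the first Vector 2 piece left out and 0.57 with pieces averaged as TPM, with 19 of 20 higher in both. For 6 of the 20, Col1a1 among them, the groups lay apart on the log2 scale with Ly86 higher, beside 4.71% of tested genes. Col3a1, of type III collagen, ran from 314 to 1029 TPM in Ly86 tumors and from 93.5 to 866 TPM in Vector tumors (1.98, SE 0.52, limma adjusted p = 0.437). Sparc, a matrix glycoprotein, ran from 501 to 1035 TPM in Ly86 tumors and from 421 to 939 TPM in Vector tumors (0.34, SE 0.26, limma adjusted p = 0.668). Myofibroblast genes were 9 of 13 higher, with a median of 0.42 and none past the test, and this median was -0.22, with 5 of 13 higher, with pieces averaged as TPM and 1.05, with 12 of 13 higher, with the first Vector 2 piece left out. Postn, or periostin, ran from 57.3 to 212 TPM in Ly86 tumors and from 39.5 to 433 TPM in Vector tumors (0.68, SE 0.55), Tgfbi from 61.2 to 114 TPM and from 12.0 to 141 TPM (0.85, SE 0.62), and Tnc from 21.3 to 47.1 TPM and from 11.7 to 109 TPM (0.42, SE 0.44).

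Partners of Mfap5, Efemp1 and Tnxb in elastic fibers and matrix were 8 of 10 higher, with a median of 0.57 and none past the test. The median was 0.13, with 7 of 10 higher, with pieces averaged as TPM and 0.76 with the first Vector 2 piece left out. Emilin1, an elastic fiber protein, ran from 51.8 to 67.3 TPM in Ly86 tumors and from 66.4 to 73.7 TPM in Vector tumors (-0.17, SE 0.12). Efemp2, a fibulin related to Efemp1, ran from 50.5 to 66.4 TPM in Ly86 tumors and from 28.3 to 56.9 TPM in Vector tumors (0.56, SE 0.21). Ltbp3, which binds latent TGF-beta, ran from 36.7 to 56.3 TPM in Ly86 tumors and from 46.8 to 60.7 TPM in Vector tumors (-0.19, SE 0.17). Of the ligands and receptors around Pdgfra, 5 of 6 were higher with a median of 0.36 and none past the test. The median was 0.75 with the first Vector 2 piece left out and 0.21 with pieces averaged as TPM. Pdgfrb, the receptor that mural cells share, ran from 8.06 to 19.4 TPM in Ly86 tumors and from 7.18 to 18.5 TPM in Vector tumors (0.19, SE 0.32). The ligand Pdgfa differed by 0.047 (SE 0.15) and Pdgfb by 0.52 (SE 0.25).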

How the data were processed

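Expression was measured by sequencing of polyadenylated RNA in 10 libraries from 4 Ly86 and 3 Vector tumors. TRIzol extraction is stated in the labels' protocols, as is sequencing on a NovaSeq instrument. Per the submitters' processing notes, STAR 2.7.10b, RSEM 1.3.3 and build mm39 were used. The authors deposited log2 values. That they are log2(TPM + 1) was read from the values: undoing the log gave a multiple of 0.01 TPM, to within 0.0001 hundredths, for 99.9% of values, and sums of 994679 to 996446 TPM per library.

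The log2 values of pieces of a tumor were averaged. Genes with a mean of at least 1 TPM over the tumors, 14556 in all, were fitted with limma 3.58.1 in R 4.3.3 (lmFit, eBayes with trend, Benjamini-Hochberg adjustment, threshold 0.05), checked on simulated data. Differences are Ly86 minus Vector on the log2(TPM + 1) scale and understate the change of low genes. Marker sums, and the TPM ranges over tumors of genes outside the members, are of TPM with pieces averaged for a tumor. The members and the 16 other gene lists were chosen with earlier results of these data known. Named genes were the 10 members, Col1a1, the 3 genes of highest mean TPM on the fibroblast, matrix and PDGF lists and the 8 genes of most similar profile; of the marker lists, sums and counts are given with fewer names, and Pax7 and Gpm6a were named after their values were seen. Promoter windows are RefSeq's, on GRCm38.p6, another build than the authors'. Alternatives were pseudocounts of 0.1 and 0.5, no filter, a minimum of 5 TPM, scalings, single pieces, other denominators, eBayes settings, blocks and leaving out each tumor. Averaging pieces as TPM, and leaving out the first Vector 2 piece, were chosen after seeing the data. Plots were made in Python 3.11.15 with matplotlib 3.10.9.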

Additional observations from a re-analysis of the deposited data

How the results depend on the processing

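Read depth is unknown, so no counting error can be given for the low Vector values, and 7 tumors limit the precision. All 10 members kept a higher mean in the Ly86 tumors under all alternatives, with a median difference between 1.09 and 2.52, and the 160 alternative values of single members held no change of sign. Relative to Col1a1 or to another denominator put in its place, 15 of 170 alternative values changed sign. The median relative to Col1a1 was 1.04 with a pseudocount of 0.1 and 1.61 with Pdgfrb as the denominator, and 0.041 to 0.59 with each tumor left out. With a pseudocount of 0.1, the median difference between pieces was -2.36 in Vector tumor 1 and 6.38 in Vector tumor 2. The number of genes past the limma threshold, 0 with all libraries, was 1 with the first pieces, 37 with the second pieces, 3 with the first Vector 2 piece left out and 0 to 2 with each tumor left out. The number of tested genes whose groups did not overlap, 1523 in either direction, was 497 with the first pieces, 3014 with the second, 2711 with the first Vector 2 piece left out and 1943 to 4303 with each tumor left out, where fewer tumors are compared. The causes of the other changes were not tested. Scaling moved the median of all genes by less than 0.1 log2 units. The labels number tumors in both groups without saying that a number is shared. The deviations of same-numbered tumors correlated at -0.172, -0.11 and -0.308, and 0 of 6 tumors correlated best with its own number, so the numbers were not taken to pair the tumors. With the tumor number as a replicate block, 0 genes passed, 645 had an unadjusted p under 0.05 in place of 1565, and the median difference of the members was 1.77.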
